A study of Mus musculus with 2 samples.

Results

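The small proline-rich genes *Sprr1b*, *Sprr2b*, *Sprr2e*, *Sprr2f*, *Sprr2i* and *Sprr4* were followed across 2 sections of mouse skin measured by spatial transcriptomics. They are 6 of the 12 genes with an *Sprr* symbol, and of the 19465 genes in all, that the files list, and they were taken by symbol. They were selected on earlier results of the same data, so their enrichment in the epidermis is given as a description. One section came from an *S1pr2* fl/fl mouse and the other from an *S1pr2* fl/fl *K14-Cre* mouse. In both mice both copies of *S1pr2*, the gene of the sphingosine 1-phosphate receptor S1PR2, carry loxP sites; in the second, Cre driven by the keratin 14 promoter deletes the gene in keratinocytes of the epidermis and of the hair follicles. Both mice were 8 weeks old and had their back skin depilated 1 day before a daily dose of 62.5 mg of 5% imiquimod (IMQ) cream, a TLR7 agonist that gives a psoriasis-like inflammation, for 7 days. No section of untreated skin was analysed here, so every value below is from IMQ-treated skin.

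SPRR proteins are short proteins rich in proline and glutamine that transglutaminases link into the cornified envelope, the protein shell that keratinocytes build under their membrane as they turn into the dead outer layer of the skin. They act there as cross-bridges between larger envelope proteins such as loricrin and involucrin. Their genes lie side by side in the epidermal differentiation complex, together with the genes of loricrin, filaggrin and the late cornified envelope (LCE) proteins. *Sprr1* and *Sprr2* genes are low in resting skin and are known to be induced in psoriasis, wounds and barrier injury.

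The 6 genes lie within 184 kilobases of mouse chromosome 3, from 92316705 to 92500493 on build GRCm38.p6 of RefSeq. *Sprr2b*, *Sprr2e*, *Sprr2f* and *Sprr2i* are transcribed from the plus strand and *Sprr1b* and *Sprr4* from the minus strand. The stretch before the start of each gene is shown since the *Sprr2* genes, as described further on, differed in how their level compared between the sections while their promoters share motifs. Each is read from RefSeq on the strand of its gene, 5′ to 3′, and ends at the base before the annotated gene. Capitals mark 3 motifs, each searched on both strands. The AP-1 motif was searched as TGAGTCA. The octamer motif was searched as ATTTGCAT. The TATA box was searched as TATAAA.
*Sprr2b*, chr3:92316455-92316704, plus strand: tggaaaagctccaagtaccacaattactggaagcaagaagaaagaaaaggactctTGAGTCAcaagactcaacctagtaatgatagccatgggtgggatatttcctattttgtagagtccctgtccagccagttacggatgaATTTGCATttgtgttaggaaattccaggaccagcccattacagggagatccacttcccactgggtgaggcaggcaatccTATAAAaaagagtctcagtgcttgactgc
*Sprr2e*, chr3:92351893-92352142, plus strand: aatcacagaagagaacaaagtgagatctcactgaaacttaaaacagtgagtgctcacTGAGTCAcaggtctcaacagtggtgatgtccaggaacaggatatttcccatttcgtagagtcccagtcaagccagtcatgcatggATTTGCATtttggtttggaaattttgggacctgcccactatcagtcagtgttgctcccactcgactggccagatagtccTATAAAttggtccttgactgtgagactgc
*Sprr2f*, chr3:92364937-92365186, plus strand: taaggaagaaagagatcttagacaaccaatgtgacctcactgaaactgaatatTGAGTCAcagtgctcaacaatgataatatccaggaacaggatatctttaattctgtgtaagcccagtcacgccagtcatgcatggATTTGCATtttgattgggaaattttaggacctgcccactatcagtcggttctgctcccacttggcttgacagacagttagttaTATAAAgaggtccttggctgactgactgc
*Sprr2i*, chr3:92407741-92407990, plus strand: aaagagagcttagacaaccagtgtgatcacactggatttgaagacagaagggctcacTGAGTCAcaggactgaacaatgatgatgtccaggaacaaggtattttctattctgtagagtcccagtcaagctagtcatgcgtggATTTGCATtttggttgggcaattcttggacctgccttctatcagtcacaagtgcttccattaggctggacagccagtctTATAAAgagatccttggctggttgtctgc
All 4 *Sprr2* promoters shown hold the same 3 motifs in the same order. The octamer begins 108 bases before the start in *Sprr2b*, *Sprr2e* and *Sprr2i* and 112 in *Sprr2f*, the AP-1 motif begins between 193 and 197 bases before it, and the TATA box 29. Of the 32851 RefSeq promoter windows of 250 bases, 4.46% hold TGAGTCA, 1.60% ATTTGCAT, 12.4% TATAAA, and 37 windows hold the first 2 together. The promoters of *Sprr2d*, *Sprr2h* and *Sprr2k*, which are not printed, hold the 3 motifs as well. Among the 6 genes the most alike pair, *Sprr2e* and *Sprr2i*, was identical in 77.2% of the aligned positions of the window. *Sprr2b* was identical to the other *Sprr2* promoters shown in 64.4% to 65.8%. Pairs with *Sprr1b* or *Sprr4* were identical in 50.5% to 54.2%. The other promoters of the 6 genes are those of *Sprr1b* and *Sprr4*.
*Sprr1b*, chr3:92438818-92439029, minus strand: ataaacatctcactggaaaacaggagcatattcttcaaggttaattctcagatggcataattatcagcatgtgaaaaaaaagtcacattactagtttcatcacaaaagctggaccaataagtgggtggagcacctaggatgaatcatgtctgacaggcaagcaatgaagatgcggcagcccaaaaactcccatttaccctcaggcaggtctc
*Sprr4*, chr3:92500494-92500743, minus strand: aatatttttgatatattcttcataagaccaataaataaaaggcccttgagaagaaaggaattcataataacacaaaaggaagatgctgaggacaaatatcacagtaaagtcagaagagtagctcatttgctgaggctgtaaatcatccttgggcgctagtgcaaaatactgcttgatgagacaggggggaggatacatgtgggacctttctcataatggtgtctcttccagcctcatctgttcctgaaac
Neither holds TGAGTCA or ATTTGCAT in its 250 bases. *Sprr1b* has a TATAAA 30 bases before its main start, in the last 38 bases of the window, which are not printed because a longer transcript model covers them. The RefSeq model of *Sprr4* is 231 bases long, so the start used for it may not be that of its transcript. A match names letters only, and binding was not measured.

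Each spot of the array captures RNA from a small area of skin that can hold several cells. Values are unique molecular identifiers (UMIs, each the tag of 1 captured probe pair), and levels are UMIs per 1000000 UMIs of the same region (CPM). There were 5315351 UMIs over 1282 spots of the fl/fl skin and 2845826 over 981 spots of the *K14-Cre* skin. Spots were clustered without any *Sprr* or *Lce* gene, and clusters rich in keratinocyte markers are called epidermis-like. They were 179 spots in the fl/fl section (1 cluster, 10 of 15 markers at least 2-fold over the rest) and 154 in the *K14-Cre* section (2 clusters of 44 and 110 spots, with 10 and 13 of 15). The median spot of these regions held 3806 and 2306.5 UMIs. All other spots with at least 50 UMIs, 1057 and 820, are called other spots. A further *K14-Cre* cluster of 133 spots, in which 8 of 15 keratinocyte markers and 3 of 5 sebaceous markers passed, was counted among the other spots. *S1pr2* itself had 17 UMIs in the epidermis-like spots of the fl/fl section and 3 in those of the *K14-Cre* section. Those regions held 958439 and 477345 UMIs in all. The chemosensory receptor genes used below as a background had means of 1.05 and 3.68 UMIs there. In the whole sections *S1pr2* had 154 and 54 UMIs. Whether its probes lie in the deleted part is not in the files. With 1 section per genotype, genotype, animal and section cannot be told apart, no test between sections is possible and no p-value is given. Intervals are 95% and cover counting error only.

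In the epidermis-like spots of the fl/fl section the 6 genes together gave 9606 UMIs, 1.00% of all UMIs there. *Sprr1b*, the most abundant, had 5943 UMIs (6201 CPM, interval 6044 to 6360). *Sprr2i* followed with 2091 UMIs (2182 CPM, 2089 to 2277) and *Sprr2b* with 1165 UMIs (1216 CPM, 1147 to 1287). *Sprr2f* and *Sprr2e* lay well below, at 182 UMIs (190 CPM, 163 to 220) and 162 UMIs (169 CPM, 144 to 197), and their ratio of 1.12 had an interval of 0.904 to 1.40, so their order is not set. *Sprr4* was last with 63 UMIs (65.7 CPM, 50.5 to 84.1). Every other pair of neighbours in this order was separated beyond counting error, the closest being *Sprr2i* over *Sprr2b* at 1.79 (1.67 to 1.93). The order is of UMIs as the probes count them: the number of probe pairs of each gene is not in the files, and with near-identical *Sprr2* genes a probe may also catch a relative, so it is no order of transcript numbers.

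In the *K14-Cre* section the 6 genes gave 2947 UMIs, 0.617% of the epidermis-like UMIs. *Sprr1b* again came first with 1770 UMIs (3708 CPM, 3537 to 3885), and *Sprr2i* second with 1044 UMIs (2187 CPM, 2056 to 2324). *Sprr2b* was the third but far lower, with 77 UMIs (161 CPM, 127 to 202). *Sprr2f* had 23 UMIs (48.2 CPM, 30.5 to 72.3), *Sprr2e* 18 (37.7 CPM, 22.3 to 59.6) and *Sprr4* 15 (31.4 CPM, 17.6 to 51.8). These last 3 were not separated from each next one, with ratios of 1.28 (0.660 to 2.51) and 1.2 (0.571 to 2.56). As a background of the assay, the 1226 chemosensory receptor genes were taken, on the assumption that most of them are silent in skin. They had a mean of 3.68 UMIs in the same spots, with a 95th percentile of 10. *Sprr2f*, *Sprr2e* and *Sprr4* stood at the 99.8, 99.7 and 99.2 percentiles of these genes, and the highest receptor gene had 55 UMIs.

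**Figure D1:**
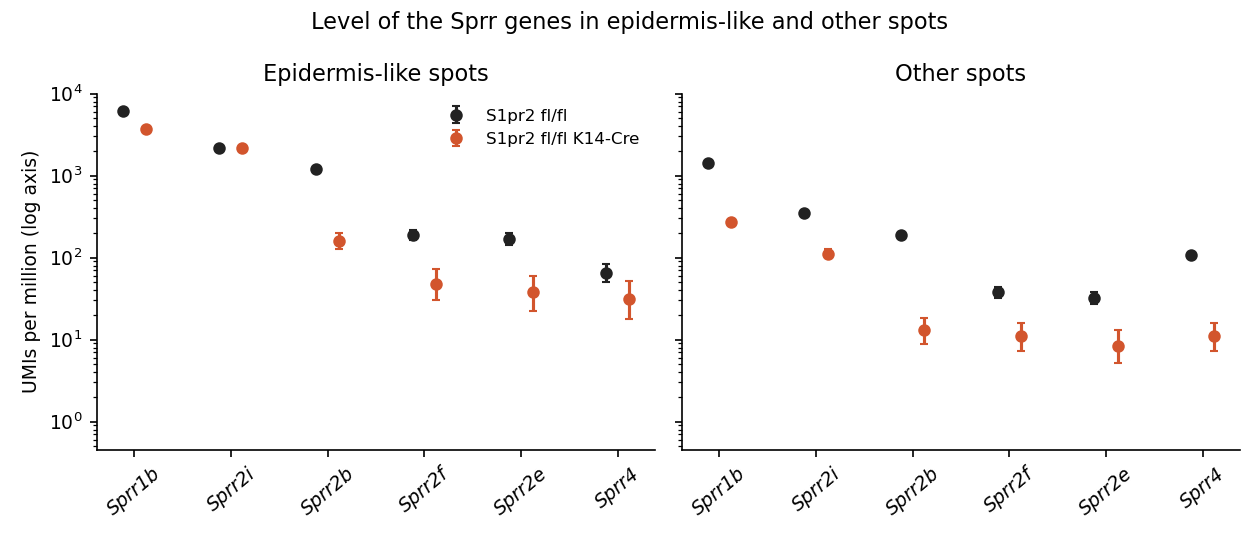
Level of each gene in CPM on a log axis, in epidermis-like spots (left) and in other spots (right), with the S1pr2 fl/fl section in black and that of the K14-Cre mouse in orange, 1 section each. Bars are exact 95% Poisson intervals and cover counting error only. Sprr2i lies at 2182 and 2187 CPM in the epidermis-like spots of the sections, while Sprr2b lies at 1216 and 161 CPM.

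Between the sections the members went apart. *Sprr2i* was at nearly the same CPM in both epidermis-like regions, with a log2 ratio of *K14-Cre* over fl/fl of 0.00 (-0.10 to 0.11). *Sprr1b* was 1.67-fold lower in the *K14-Cre* section (1.59 to 1.76, log2 ratio -0.74). *Sprr2b* was 7.54-fold lower (5.98 to 9.62), *Sprr2e* 4.48-fold (2.75 to 7.75), *Sprr2f* 3.94-fold (2.55 to 6.37) and *Sprr4* 2.09-fold (1.18 to 3.96). Thus 4 of the 6 were at least 2-fold lower in the *K14-Cre* section and none at least 2-fold higher. Of 8102 genes with at least 20 UMIs over both regions, 12.6% were at least 2-fold lower and 26.5% at least 2-fold higher, and their median log2 ratio was 0.27. The balance turned with a minimum of 100 UMIs, where 16.5% of 2424 genes were at least 2-fold lower and 14.2% at least 2-fold higher. The sum of the 6 genes was 1.62-fold lower (1.56 to 1.69, log2 ratio -0.70). When the *K14-Cre* cluster of 133 spots was counted as epidermis-like, a choice added after the data were seen, the log2 ratio was -1.41 for the sum and -0.72 for *Sprr2i*.

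This difference of the sum depended on the scale. Per UMI of the 15 keratinocyte markers its log2 ratio was 0.12 and that of *Sprr1b* 0.07, and per UMI of the 6 suprabasal markers, a scale added after the data were seen, they were 1.04 and 1.00, the other way. The same scales gave *Sprr2i* log2 ratios of 0.82 and 1.74, and *Sprr4* reached 0.67 on the second, whereas the TMM factor gave -0.81 for *Sprr2i*. The point values of *Sprr2b*, *Sprr2e* and *Sprr2f* were below 0 in all 15 alternatives that gave a value. *Sprr2b* lay between -3.72 and -1.18, *Sprr2e* between -2.97 and -0.43 and *Sprr2f* between -2.79 and -0.24. No intervals are given for these, and *Sprr2e* and *Sprr2f* rest on 18 and 23 *K14-Cre* UMIs. Their values nearest 0, both per suprabasal marker UMI, are therefore not shown to be separate from 0. The count of members at least 2-fold lower, 4 per total UMIs, was 3 per keratinocyte marker UMI, where *Sprr4* was at -0.25, and also 3 with the larger *K14-Cre* cluster alone. It was 1 (*Sprr2b*) per suprabasal marker UMI, where *Sprr2i* was at least 2-fold higher, and 5, with *Sprr1b*, under 5 other alternatives. The shares of all genes, 12.6% lower and 26.5% higher, are per total UMIs and were not counted anew under these alternatives. These counts of members therefore cannot be set beside those of other genes. The suprabasal markers, which label keratinocytes that have left the basal layer, moved with this comparison: all 6 were at least 2-fold lower in the *K14-Cre* region and their summed level was 17788 against 59328 CPM, while the 6 basal markers summed to 32293 against 36214 CPM. *Krt10*, the main suprabasal keratin, was at 3974 against 22175 CPM. The 7 muscle markers summed to 2036 against 706 CPM, the 9 dermal markers to 4190 against 2617 CPM and the 1226 receptor genes to 9446 against 1345 CPM. The part of any of these in the *Sprr* values was not tested, and fewer cells of a layer and less RNA per cell cannot be told apart in such spots.

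Ratios among the members within a section do not depend on the scale. In the fl/fl epidermis-like spots *Sprr2i* had 0.352 UMIs for each UMI of *Sprr1b* (0.335 to 0.370), and in the *K14-Cre* spots 0.590 (0.546 to 0.637). *Sprr2b* had 0.196 UMIs for each of *Sprr1b* (0.184 to 0.209) against 0.0435 (0.0342 to 0.0547). For each UMI of *Sprr2i* there were 0.557 of *Sprr2b* (0.518 to 0.599) in the fl/fl section and 0.0738 (0.0577 to 0.0930) in the other. *Sprr2i* therefore made up 21.8% of the UMIs of the 6 genes in the fl/fl region (20.9 to 22.6) and 35.4% in the *K14-Cre* region (33.7 to 37.2), and *Sprr2b* 12.1% (11.5 to 12.8) and 2.61% (2.07 to 3.25). The share of *Sprr1b* was close in both, 61.9% (60.9 to 62.8) and 60.1% (58.3 to 61.8).

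The epidermis-like spots were next cut into 4 segments of nearly equal spot number along each section, which are parts of 1 tissue and not replicates. How many of all genes have segments without overlap between the sections was not counted. A gap between the segments of the sections is therefore a description and not a trait particular to these genes. *Sprr1b* had 5397, 7278, 5997 and 6645 CPM in the fl/fl segments and 3343, 3709, 2619 and 5131 CPM in the *K14-Cre* segments. All fl/fl segments lay above all *K14-Cre* segments, but some intervals overlapped. That of fl/fl segment 1 was 5159 to 5642 CPM and that of *K14-Cre* segment 4 was 4723 to 5564 CPM. *Sprr2b* had 1118, 1179, 962 and 1411 CPM against 123, 276, 145 and 175 CPM, again with a gap between the sections. *Sprr2e* lay between 132 and 184 CPM in the fl/fl segments and between 22.8 and 66.1 CPM in the others, from 3 to 5 UMIs each, so that some intervals overlapped. *Sprr2f* was less even, with 104 to 252 CPM against 0 to 145 CPM, and the sections overlapped. *Sprr4* overlapped as well, at 14.5 to 103 CPM against 0 to 43.9 CPM. The *K14-Cre* segments with no UMI had 0 of *Sprr2f* in segment 3 and 0 of *Sprr4* in segment 2.

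*Sprr2i* varied most along the tissue among the 3 abundant members. Its fl/fl segments had 805, 2126, 2480 and 3551 CPM, a 4.41-fold span, against 1.35-fold for *Sprr1b* and 1.47-fold for *Sprr2b*. Its *K14-Cre* segments had 1297, 3447, 2367 and 3017 CPM, and in 7 of the 16 pairs of segments the *K14-Cre* one was the lower. The ratio of *Sprr2i* to *Sprr1b* ran from 0.149 to 0.534 over the fl/fl segments and from 0.388 to 0.929 over the *K14-Cre* segments, and these ranges overlap. The ratio of *Sprr2b* to *Sprr1b* ran from 0.160 to 0.212 and from 0.0342 to 0.0745, which do not. That of *Sprr2b* to *Sprr2i* ran from 0.388 to 1.39 and from 0.0581 to 0.0951, also without overlap. It passed 1 in fl/fl segment 1, where *Sprr2b* was the more abundant. Within the *K14-Cre* section the smaller epidermis-like cluster, with *Krt10* at 13462 CPM, had *Sprr1b* at 1797 and *Sprr2i* at 2053 CPM. The larger one, with *Krt10* at 2123 CPM, had *Sprr1b* at 4081 and *Sprr2i* at 2213 CPM. The intervals of *Sprr2i* in these clusters overlapped (1747 to 2397 and 2070 to 2364 CPM) and those of *Sprr1b* did not (1511 to 2120 and 3885 to 4284 CPM). The clusters were drawn from these same data. How many of all genes have intervals without overlap between them was not counted.

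**Figure D2:**
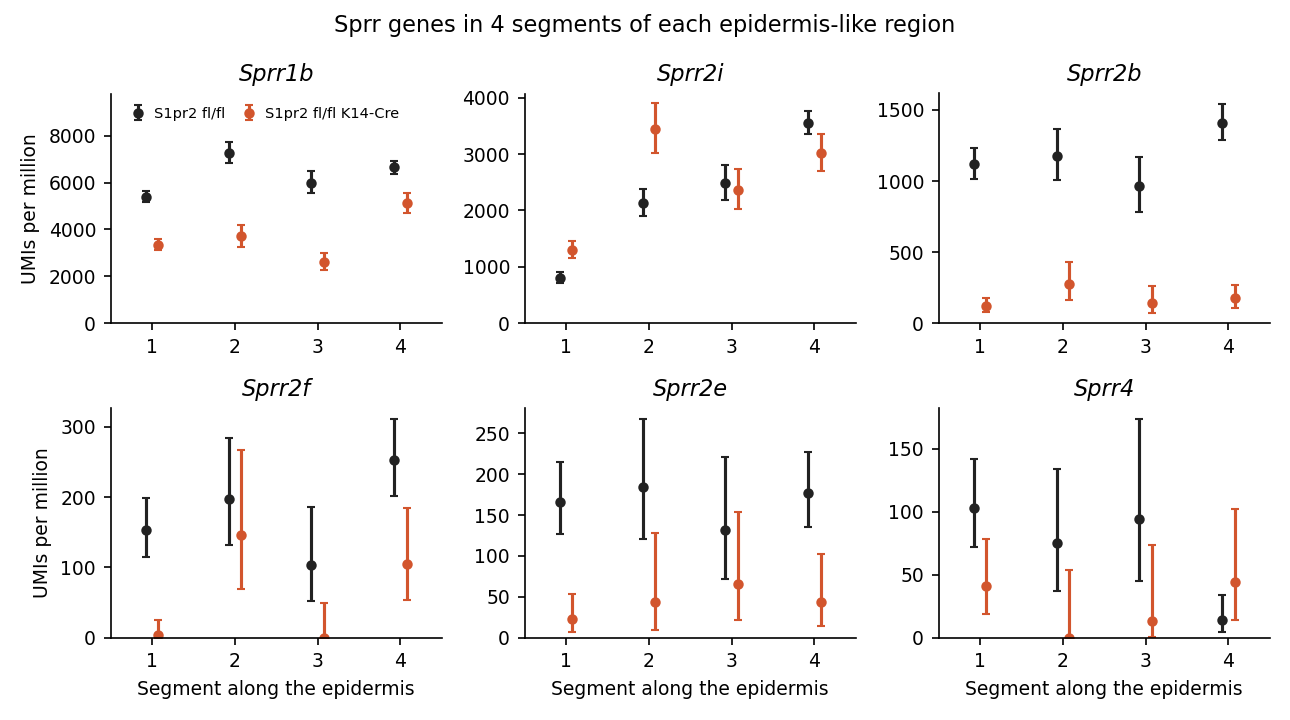
CPM of each gene in 4 segments along the epidermis-like region, numbered by array column, with the S1pr2 fl/fl section in black and that of the K14-Cre mouse in orange; bars are exact 95% Poisson intervals. Equal numbers do not pair segments of different sections. The values of Sprr1b, Sprr2b and Sprr2e do not overlap between the sections, though some intervals of Sprr1b and Sprr2e do. The values of Sprr2i, from 805 to 3551 and from 1297 to 3447 CPM, overlap. The share of all genes without such an overlap was not counted.

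Of the 6 genes, 5 were higher in the epidermis-like than in the other spots of the fl/fl section, and all 6 in the *K14-Cre* section. In the fl/fl section *Sprr2b* was 6.41-fold over the other spots (5.86 to 7.02), *Sprr2i* 6.28-fold (5.87 to 6.71), *Sprr2e* 5.26-fold (4.17 to 6.64), *Sprr2f* 5.04-fold (4.06 to 6.27) and *Sprr1b* 4.31-fold (4.16 to 4.46). These 5 were at least 2-fold higher there, as were 4.04% of all 14299 genes compared. In the *K14-Cre* section *Sprr2i* was 19.6-fold over the other spots (17.1 to 22.5), *Sprr1b* 13.8-fold (12.6 to 15.1) and *Sprr2b* 12.3-fold (8.03 to 19.4). *Sprr2e* and *Sprr2f* were 4.47-fold (2.23 to 8.89) and 4.39-fold (2.39 to 8.00) higher, from 18 and 23 UMIs. All 6 were at least 2-fold higher there, as were 15.1% of 15548 genes. In the *K14-Cre* other spots the chemosensory receptor genes had a mean of 13.3 UMIs and a 95th percentile of 28. *Sprr2b* had 31 UMIs there, *Sprr2f* and *Sprr4* 26 each and *Sprr2e* 20, so these folds are set against counts near that background. With the receptor mean taken off, the log2 ratio moved from 3.62 to 4.36 for *Sprr2b* and from 2.16 to 3.41 for *Sprr2e*. Of all *Sprr1b* UMIs, 48.7% lay in the epidermis-like spots of the fl/fl section and 73.5% in those of the *K14-Cre* section. The other spots were not alike in keratinocyte content. In the fl/fl section they held unnamed clusters of 176 and 196 spots with *Krt14* at 19274 and 19290 CPM. *Sprr1b* was at 3264 and 2255 CPM there. The smaller *K14-Cre* epidermis-like cluster had *Krt14* at 19044 CPM, and the *K14-Cre* cluster of 133 other spots 11715 CPM. The folds and shares of the sections are therefore not like for like.

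*Sprr4* did not share this place in the fl/fl section. It had 65.7 CPM in the epidermis-like spots and 108 CPM in the other spots (interval of the ratio 0.459 to 0.790). The first ring of spots, 100 µm from the nearest epidermis-like spot, held 205 UMIs or 213 CPM, spots up to 200 µm held 131 UMIs or 174 CPM, and spots beyond 500 µm 32.8 CPM. A single unnamed cluster of 196 spots, with a median distance of 100 µm and *Crygn*, *Awat1* and *Krt77* among its 10 leading genes, held 324 of the 535 *Sprr4* UMIs of the section, 60.6%, at 210 CPM. All of the 10 richest *Sprr4* spots lay in that cluster, with 10 to 28 UMIs each. Together they gave 27.5% of the *Sprr4* UMIs of the section. This ranking is by UMIs and not by CPM, and the spots of that cluster were deep, with a median of 7324 UMIs. *Awat1* encodes an enzyme of wax ester synthesis in sebaceous glands, and 2 of 5 sebaceous markers were at least 2-fold higher in that cluster, too few to name it. In the epidermis-like spots 11.2% of spots had a *Sprr4* UMI (7.0 to 16.7), against 10.8% of the 185 muscle-like spots (6.73 to 16.2), at median depths of 3806 and 4273 UMIs. The share of spots there was thus that of a tissue not known to express it. By level *Sprr4* was at 65.7 CPM in the epidermis-like spots (50.5 to 84.1) and 47.9 CPM in the muscle-like spots (34.0 to 65.5). Its 63 UMIs in the epidermis-like spots still exceeded the highest of the 1226 receptor genes there, which had 15. In the *K14-Cre* section *Sprr4* was 2.86-fold higher in the epidermis-like spots (1.41 to 5.61), but from 15 and 26 UMIs. The lower level in the fl/fl epidermis-like spots depended on which spots it was set against: the log2 ratio of -0.72 turned to 0.95 when the 2 spots of each column nearest the surface stood for the epidermis, and to 0.56 against spots more than 300 µm away.

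**Figure D3:**
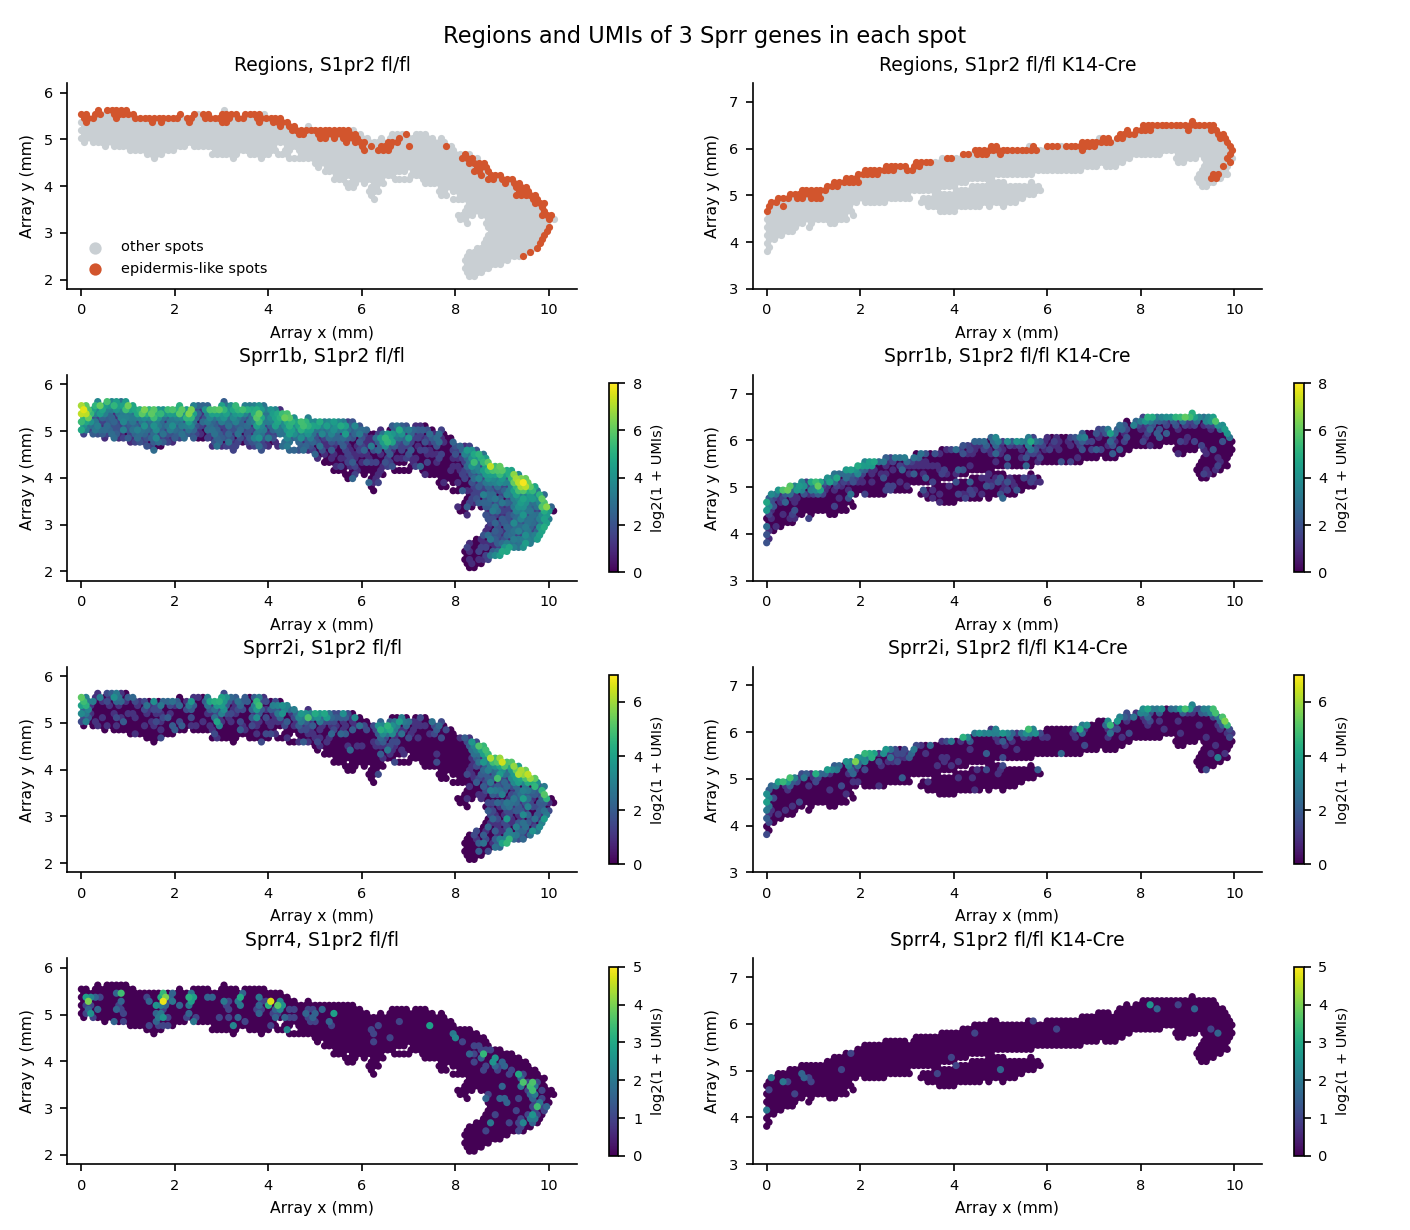
Spots of each section at their place on the array in mm, with the regions in the top row and log2(1 + UMIs) of Sprr1b, Sprr2i and Sprr4 below, with the S1pr2 fl/fl section on the left and that of the K14-Cre mouse on the right. Sprr1b and Sprr2i follow the epidermis-like edge, while the 10 richest Sprr4 spots of the fl/fl section, with 10 to 28 UMIs, lie below it.

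With distance from the epidermis-like spots the other members were lower in both sections, but reached different levels in the deep spots. *Sprr1b* in the fl/fl section had 6201 CPM at the epidermis-like spots, 2955 at 100 µm, 1421 up to 200 µm, 1187 up to 300 µm, 933 up to 500 µm and 659 CPM beyond. In the *K14-Cre* section the same steps were 3708, 706, 328, 153, 129 and 190 CPM. *Sprr2i* had 2182, 599, 314, 340, 287 and 203 CPM in the fl/fl section and 2187, 353, 146, 40.8, 47.9 and 51.7 CPM in the other. The keratinocyte markers moved with these values: beyond 500 µm the 15 markers summed to 17199 CPM in the fl/fl section and 2800 CPM in the *K14-Cre* section, against 112166 and 63688 CPM in the epidermis-like spots. *Krt14*, a keratin of basal keratinocytes, was at 5615 and 924 CPM beyond 500 µm. How much of the deep *Sprr* signal is RNA from the epidermis was not tested.

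**Figure D4:**
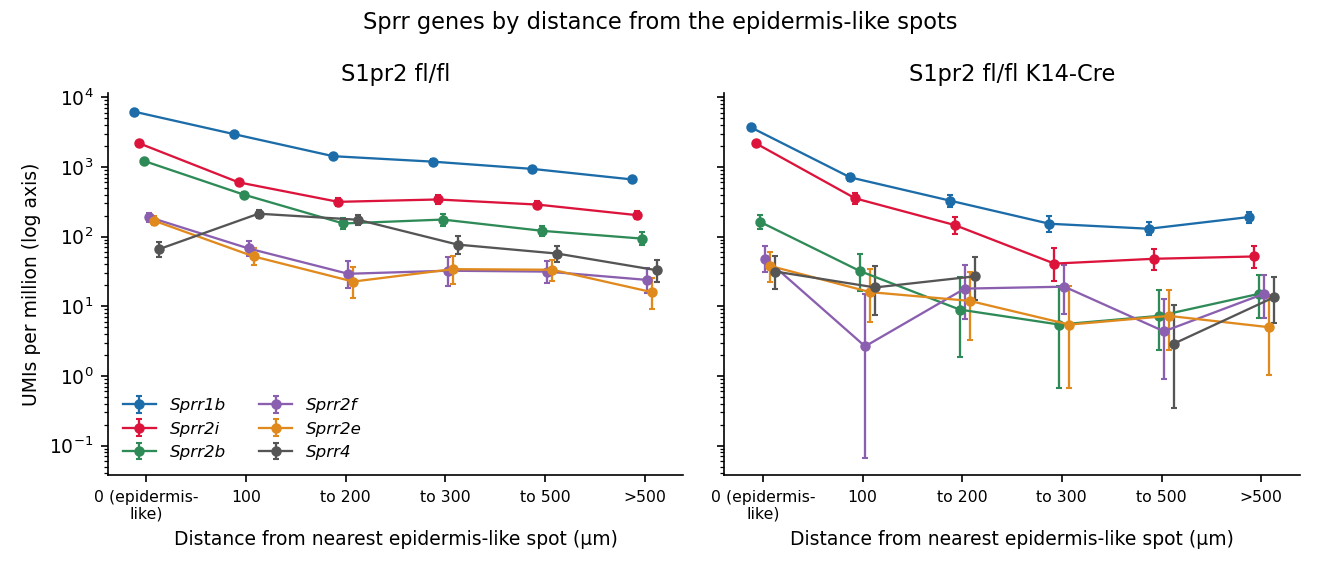
CPM (log axis) of the 6 genes by distance in µm from the nearest epidermis-like spot, with the S1pr2 fl/fl section on the left and that of the K14-Cre mouse on the right; bars are exact 95% Poisson intervals and groups with no UMI have no point. Sprr4 of the fl/fl section is the line that is higher at 100 µm (213 CPM) than in the epidermis-like spots (65.7 CPM).

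Spread over single spots mostly followed abundance. In the fl/fl epidermis-like spots *Sprr2b* was seen in 161 spots and *Sprr2i* in 160, and *Sprr2e* in 79 and *Sprr2f* in 70, against their order by UMIs. With every spot thinned to 1000 UMIs this was not so. *Sprr2b* was then seen in 112 and *Sprr2i* in 117 of 172 spots, and *Sprr2e* in 30 and *Sprr2f* in 31. In the fl/fl epidermis-like region 98.9% of spots had a *Sprr1b* UMI (96.0 to 99.9), 89.9% a *Sprr2b* UMI, 89.4% a *Sprr2i* UMI, 44.1% a *Sprr2e* UMI and 39.1% a *Sprr2f* UMI. In the muscle-like spots of the same section, which should lack these genes and had a median of 4273 UMIs, the shares were 73.5% for *Sprr1b*, 24.9% for *Sprr2i*, 15.7% for *Sprr2b*, 8.11% for *Sprr2f* and 3.78% for *Sprr2e*. In the *K14-Cre* epidermis-like region the shares were 87.7% for *Sprr1b*, 78.6% for *Sprr2i*, 29.9% for *Sprr2b*, 9.09% for *Sprr2f* and 7.14% for *Sprr2e*, and in its muscle-like spots, with a median of 2097 UMIs, 25%, 8.21%, 1.43%, 1.43% and 1.43%. When every spot was thinned to 1000 UMIs, which kept 172 and 138 epidermis-like spots, *Sprr2i* was seen in 68.0% (60.5 to 74.9) and 65.9% (57.4 to 73.8) of them. *Sprr1b* was seen in 97.7% (94.2 to 99.4) and 81.9% (74.4 to 87.9), and *Sprr2b* in 65.1% (57.5 to 72.2) and 14.5% (9.08 to 21.5). At equal depth the intervals of these shares overlapped between the sections for *Sprr2i* and not for *Sprr1b* and *Sprr2b*. How many of all genes have such shares without overlap was not counted. In the thinned spots the log2 ratio of *Sprr2i*, *K14-Cre* over fl/fl, was -0.17, beside 0.00 (-0.10 to 0.11) without thinning.

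*Sprr2i* was the most unevenly spread of the 3 abundant members in the fl/fl section. The quartiles over fl/fl epidermis-like spots were 460, 1276 and 3881 CPM for *Sprr2i*, 3368, 5511 and 8636 CPM for *Sprr1b* and 493, 1016 and 1814 CPM for *Sprr2b*. The richest 10% of spots, 18 spots, held 43.9% of the *Sprr2i* UMIs, 35.1% of those of *Sprr1b* and 35.2% of those of *Sprr2b*. The highest spot had 231 UMIs of *Sprr1b*, 87 of *Sprr2i* and 41 of *Sprr2b*. In the *K14-Cre* region the quartiles of *Sprr2i* were 350, 1530 and 4130 CPM and those of *Sprr1b* 1268, 3143 and 4838 CPM. Its richest 10%, 16 spots, held 41.8% of the *Sprr2i* and 39.3% of the *Sprr1b* UMIs.

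Across the epidermis-like spots with at least 500 UMIs, 176 and 151 spots of 1 library each that differ in depth, *Sprr1b* and *Sprr2i* had the highest Pearson correlation of the 15 member pairs, 0.55 in the fl/fl and 0.47 in the *K14-Cre* section, on ln(1 + UMIs per 10000). *Sprr4* had correlations from -0.17 to -0.01 with the other members in the fl/fl spots and from -0.08 to 0.00 in the *K14-Cre* spots. Over all spots of at least 500 UMIs, 1096 and 947, the 10 genes of 7584 whose pattern was most like the sum of the 6, no *Sprr* gene counted, were *Krt6b*, *S100a8*, *Krtdap*, *Krt14*, *Fabp5*, *Stfa3*, *Calm4*, *2310046K23Rik*, *Krt6a* and *Urah*, with mean correlations over the sections from 0.64 to 0.56. *Krt6a* and *Krt6b* are keratins of wounded and hyperproliferative epidermis and *S100a8* a calgranulin. *Krt6b* was also the closest gene to *Sprr1b* (0.62). *Lce3a*, a late envelope gene, was the closest to *Sprr2b* (0.47) and *Sprr2e* (0.22), *Lce3c* to *Sprr2f* (0.27), and *Gjb6*, the gene of connexin 30, to *Sprr2i* (0.55). For *Sprr4* it was *Cst6*, a cysteine protease inhibitor of the epidermis, at 0.26.

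Of the other 6 *Sprr* genes of the files, 5 had at least 20 UMIs over both regions. Per total UMIs, 2 of these were at least 2-fold lower in the *K14-Cre* section, beside 12.6% of all 8102 genes. A single one was at least 2-fold higher, beside 26.5% of all genes. With a minimum of 100 UMIs the shares of all genes were 16.5% lower and 14.2% higher. *Sprr2d* was at 3660 CPM in the fl/fl and 419 CPM in the *K14-Cre* epidermis-like spots, 8.74-fold lower (7.57 to 10.1), and *Sprr2h* at 1831 and 362 CPM, 5.05-fold lower (4.32 to 5.94). *Sprr1a*, the partner of *Sprr1b*, was at 2323 and 1387 CPM with a log2 ratio of -0.74 (-0.87 to -0.62), beside -0.74 for *Sprr1b*. *Sprr2j-ps*, a pseudogene of the family, had a log2 ratio of -0.40 (-0.84 to 0.03). *Sprr2k*, with 9 and 12 UMIs, was the higher one, with a log2 ratio of 1.42 (0.05 to 2.85). It stood at the 99.8 and 97.2 percentiles of the receptor genes, whose means in the 2 regions were 1.05 and 3.68 UMIs. *Sprr3* had 2 and 5 UMIs, at the 74.3 and 69.4 percentiles. *Sprr2a1*, *Sprr2a2* and *Sprr2a3* were not analysed here.

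The lists that follow are given per total UMIs and were not rescaled to keratinocyte or suprabasal markers. The 6 suprabasal markers were themselves lower in the *K14-Cre* region, at 17788 against 59328 CPM. A lower level below therefore need not hold per suprabasal marker UMI. Of 11 measured genes of a cornified envelope list, 9 were at least 2-fold lower in the *K14-Cre* epidermis-like spots, beside 12.6% of all 8102 genes. None was at least 2-fold higher, beside 26.5%, and the median log2 ratio was -1.81 beside 0.27 for all genes. *Lor*, the gene of loricrin, was at 4124 CPM in the fl/fl and 807 CPM in the *K14-Cre* section (log2 ratio -2.35), *Ivl*, involucrin, at 523 and 168 CPM (-1.64) and *Flg*, filaggrin, at 9553 and 601 CPM (-3.99), while *Evpl*, envoplakin, was at 1410 and 1569 CPM (0.15). All 11 measured *Lce* genes were at least 2-fold lower (median -2.88), from -4.37 for *Lce1m*, with 83 and 2 UMIs, to -1.42 for *Lce3c*. The transglutaminases, the enzymes that link SPRR proteins into the envelope, differed among themselves: *Tgm1* was at 979 and 1582 CPM (0.69), *Tgm3* at 821 and 610 CPM (-0.43) and *Tgm5* at 274 and 109 CPM (-1.33).

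Of the 7 stress keratins and alarmins measured, 5 were at least 2-fold lower per total UMIs in the *K14-Cre* region, beside 12.6% of all genes. Their median was -1.19, with *Krt6b* at 20552 and 9033 CPM (-1.19) and *Krt17* at 3522 and 3333 CPM (-0.08). None of the 9 measured regulators of late differentiation passed 2-fold either way (median -0.08). *Grhl3*, a transcription factor of the epidermal barrier, was at 418 and 503 CPM (0.27), *Klf4* at 695 and 620 CPM (-0.16), and *Junb*, an AP-1 subunit, at 377 and 570 CPM (0.60). The ratios of *Sprr2i* and *Sprr1b* lay within the range of the regulators, -0.85 for *Prdm1* to 0.94 for *Nfe2l2*. That range also holds the median of all genes, 0.27. Those of *Sprr2b*, *Sprr2e* and *Sprr2f* lay within the range of the *Lce* genes, -4.37 to -1.42, and that of *Sprr4*, -1.06, in neither. These ranges do not sort the members, since other lists cut across them. The cornified envelope list, from -4.19 for *Rptn* to 0.15 for *Evpl*, held every member. The stress keratins and alarmins, from -2.80 for *S100a9* to -0.08 for *Krt17*, held all but *Sprr2b* and *Sprr2i*.

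**Figure D5:**
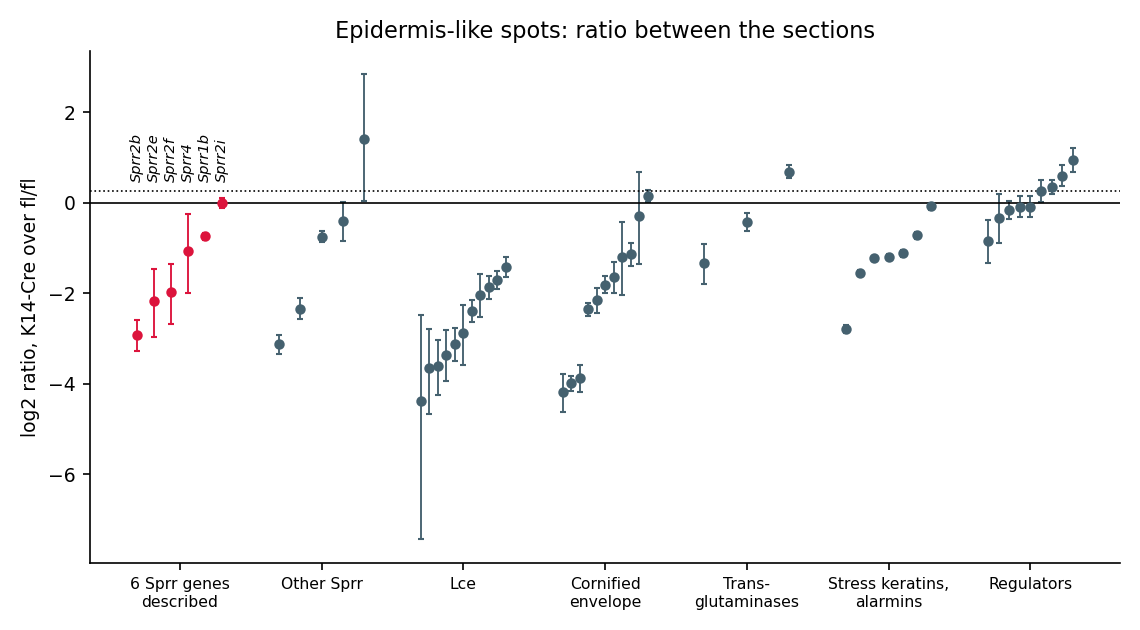
Log2 ratio of CPM in epidermis-like spots, K14-Cre section over fl/fl section, for the 6 genes (red, named) and for genes of 6 lists (grey-blue) with at least 20 UMIs over both regions; bars are conditional binomial 95% intervals and the dotted line is the median of 8102 genes, 0.27. The 6 genes run from -2.91 for Sprr2b to 0.00 for Sprr2i, all on the scale of total UMIs: per keratinocyte marker UMI Sprr1b turns to 0.07, and per suprabasal marker UMI Sprr1b and Sprr4 turn to 1.00 and 0.67. The genes of the lists were not rescaled.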

How the data were processed

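The authors sectioned formalin-fixed skin at 10 µm and made libraries with the Visium CytAssist probe assay. The deposited matrices hold raw UMI counts per gene and spot under tissue, without normalization; the file header names Space Ranger 3.0.0, and the labels the build mm10. The other deposited tables hold gene names, barcodes and spot positions. Barcodes name array positions, and 357 occur in both libraries. The 6 members and the gene lists were chosen with earlier results of these data known.

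Spots of at least 50 UMIs (46 fl/fl and 7 *K14-Cre* spots fell below, with 0 member UMIs) were clustered section by section (Python 3.11.15; scanpy 1.11.5; igraph 0.11.9) on the 2000 most variable genes without *Sprr* and *Lce* genes, 20 principal components, 15 neighbours, Leiden resolution 1, seed 0. A cluster was named when 50% or more of a class's markers, each with 5 UMIs or more, exceeded the remaining spots 2-fold. A fl/fl cluster of 115 spots (median 697 UMIs) met this for muscle but stayed unnamed, being shallow with no marker among its 10 leading genes, so it is not in the muscle-like spots; 3 *K14-Cre* clusters were left unnamed after their leading genes were seen. Marker lists covered epidermis, dermis, fat, muscle, hair, sebaceous glands, blood, and basal and suprabasal keratinocytes. UMIs were summed per region and divided by all its UMIs. UMIs got exact Poisson intervals, shares of spots Clopper-Pearson ones and ratios conditional binomial ones (scipy 1.17.1). Only the ratio intervals were tested on simulated data. Those data were drawn as Poisson counts, so the test could not show how the intervals behave with wider spread between spots. Spots are not replicates. Named genes were the *Sprr* genes, list genes with at least 20 UMIs over both regions, and the most alike genes of at least 200 UMIs. TMM factors came from edgeR 4.0.16 in R 4.3.3. Promoters and coordinates are RefSeq, GRCm38.p6, matched by symbol for 6 of 6 members. The alternatives are given with their effects in the closing section.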

Additional observations from a re-analysis of the deposited data

Results flagged for a closer look

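*Sprr4* ran in opposite directions in the sections. Its log2 ratio of epidermis-like over other spots was -0.72 for fl/fl (interval -1.12 to -0.34, 63 and 472 UMIs) and 1.52 for *K14-Cre* (0.50 to 2.49, 15 and 26 UMIs). The difference between the sections was not tested, since each genotype has 1 section. In the fl/fl section the value turned to 0.95 when the 2 spots of each column nearest the surface stood for the epidermis, and to 0.56 against other spots more than 300 µm away.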

How the results depend on the processing

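Values are log2 ratios. For the sum of the 6 genes, *K14-Cre* over fl/fl was -0.70 and turned to 0.12 per keratinocyte marker UMI and to 1.04 per suprabasal marker UMI. *Sprr1b* turned to 0.0747 and 1.00 on these scales, and *Sprr4* to 0.67 on the second. The sum moved to -1.07 with the 2 spots of each column nearest the surface, -1.25 with at least 500 UMIs per spot, -1.36 over all tissue spots, -1.51 with the TMM factor, -0.61 with the larger *K14-Cre* cluster alone and -1.41 with the *K14-Cre* cluster of 133 spots added; the cause was not tested. The other 7 alternatives stayed within the counting interval. With at least 500 UMIs per spot the spots were also clustered anew, so the regions compared were not the same. The *K14-Cre* clusters then named epidermis-like had 125 and 117 spots, in place of 44 and 110, and the fl/fl one had 159, in place of 179.

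Epidermis-like over other spots was 2.22 in the fl/fl section. It moved to 2.13 at resolution 0.5, 2.12 with the 20% of spots richest in keratinocyte markers, 2.03 with the 2 spots nearest the surface, 2.51 in spots thinned to 1000 UMIs and 3.005 against spots more than 300 µm away. In the *K14-Cre* section it was 3.86 and moved to 3.99 with the 20% of spots, 3.71 with the spots nearest the surface, 3.97 with the receptor mean taken off and 4.68 against spots more than 300 µm away. *Sprr4* in the fl/fl section turned to 0.95 with the spots nearest the surface and to 0.56 against the far spots.

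Of the 15 pairs of members, 13 to 15 kept their order in the fl/fl section and 12 to 15 in the *K14-Cre* section. With a minimum of 100 UMIs, 400 of 2424 genes were at least 2-fold lower and 344 higher, in place of 1019 and 2149 of 8102, so the balance turned. Members at least 2-fold lower numbered 4 and ranged from 1 to 5 over the 15 alternatives that gave a value. The share of all genes, 12.6% lower per total UMIs, was not counted anew under these alternatives. Clustering both sections together named a single cluster of 161 spots epidermis-like. It gave values for the fl/fl section only, and none for the *K14-Cre* section or between the sections. The scale to suprabasal markers, the 2 *K14-Cre* cluster choices, the far spots and leaving out each member's richest spot were added after the data were seen. No paired analysis was possible because each genotype has 1 section, which also leaves no replicate to leave out.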
